A study of Mus musculus with 2 samples.

Results

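The genes described here encode the molecular chaperones and folding enzymes of the cytosol, the endoplasmic reticulum (ER) and the mitochondria. The rule that chose them uses gene symbols and no measured value, but it was set with earlier results of these data known. It takes the HSP70 (Hspa and Hsph1), HSP90, HSP60 (Hspd1) and HSP10 (Hspe1) genes, the J-domain genes Dnaja, Dnajb and Dnajc, the CCT chaperonin genes with Tcp1, the protein disulfide isomerase genes Pdia, and Canx, Calr, P4hb, Stip1 and Bag3. Dnajb1 was left out by the same rule. The rule found 76 probes, among 19819 on the array, for 71 of 13709 genes. Of the 71 genes, 17 were assigned to the ER, 40 to the cytosol and 6 to the mitochondria. The other 8 encode J-domain proteins and were assigned to the nucleus or to other places.

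RNA was compared between cortical fiber cells and epithelial cells of the mouse eye lens, with 1 array for each. Forceps were used to separate lenses of 5 mice, 13 days of age, into cortical fibers and the capsule with its attached epithelium, and no genotype, strain or treatment is named for either group. The sources used here do not say whether the 5 mice were pooled. Values are normalized intensities of a 1-colour CodeLink array, in units of each array's median, and each group rests on a single array.

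No gene therefore has a replicate, and no p-value is given. A floor of 0.499 was set on both arrays, and a gene counted as higher in a sample if its intensity there was 3-fold brighter or more and reached that array's median. A difference is log2 cortex minus log2 epithelium. The only error at hand is the spread between probes of the same gene, a pooled SD of 1.10 and a median SD of 0.59 on the log2 scale over 558 genes. Single differences under 1.10 lie within this pooled SD. In bulk RNA, fewer cells of a type and less RNA per cell cannot be told apart.

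Chaperones bind unfolded protein and release it in cycles driven by ATP. In the cytosol, J-domain proteins hand clients to HSP70, which passes some on to HSP90, and the CCT ring folds actin, tubulin and other proteins. Secreted and membrane proteins fold instead in the ER, where BiP (Hspa5), GRP94 (Hsp90b1), the lectins calnexin and calreticulin and the disulfide isomerases act. In the lens, epithelial cells secrete the capsule, while fiber cells fill with cytosolic crystallins and lose their ER and mitochondria as they mature.

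The labelled tissues were checked first, because the free text of both samples names fetal liver while their titles and source names give the lens. All 9 fiber markers were brighter in cortex, 7 of them past 3-fold, and all 8 epithelial markers were higher in epithelium. Of 8 liver genes, Ahsg stood at 185 in cortex and 16.9 in epithelium, and the other 7 did not exceed 2.26 on either array. The 5 erythroid genes did not exceed 1.79, and the 3 immune genes lay under the floor on both arrays. Markers of the neighbouring ciliary body were present on the epithelium array: 6 genes summed to 13.2 in cortex and 138 in epithelium, mostly through Ptgds (7.54 in cortex, 123 in epithelium). Of these genes, Col9a2 was nearly level (3.71 in cortex, 3.28 in epithelium), and Zic1 was under the floor on both arrays. The 5 pigment cell genes summed to 3.96 in cortex and 14.4 in epithelium, mostly through Oca2 (0.521 in cortex, 9.09 in epithelium). Dct went the other way and passed 3-fold toward cortex (1.97 in cortex, under the floor in epithelium). Tyr was under the floor on both arrays. The 9 fiber markers summed to 11067 in cortex and 1935 in epithelium. The part of these other cells in the differences below was not tested.

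Of the 71 chaperone genes, 56 lay above the floor on both arrays, 4 on the cortex array alone, none on the epithelium array alone and 11 on neither. By the 3-fold rule 3 were higher in cortex and 5 in epithelium. Over all genes the rule called 9.41% in cortex and 8.17% in epithelium, so the chaperones as a whole had few calls in cortex and a share near the background in epithelium. The members nearest the limit were Dnajb14 (3.27-fold) and Dnajc16 (3.39-fold) inside it, and Dnajc4 (2.93-fold), Pdia4 (2.81-fold) and Dnaja4 (a bound of 2.72-fold) outside it. The medians of the ER members and the cytosolic members nevertheless differed. The 16 ER members above the floor on at least 1 array had a median difference of -1.11, and the 32 such cytosolic members had a median of 0.25, against 0.07 over all 10346 such genes. The ER median minus the cytosolic median was -1.36, a ratio of 2.57. Restricted to members with both values above the floor, the distance was -1.29, and leaving out their J-domain genes it was -2.03.

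**Figure D1:**
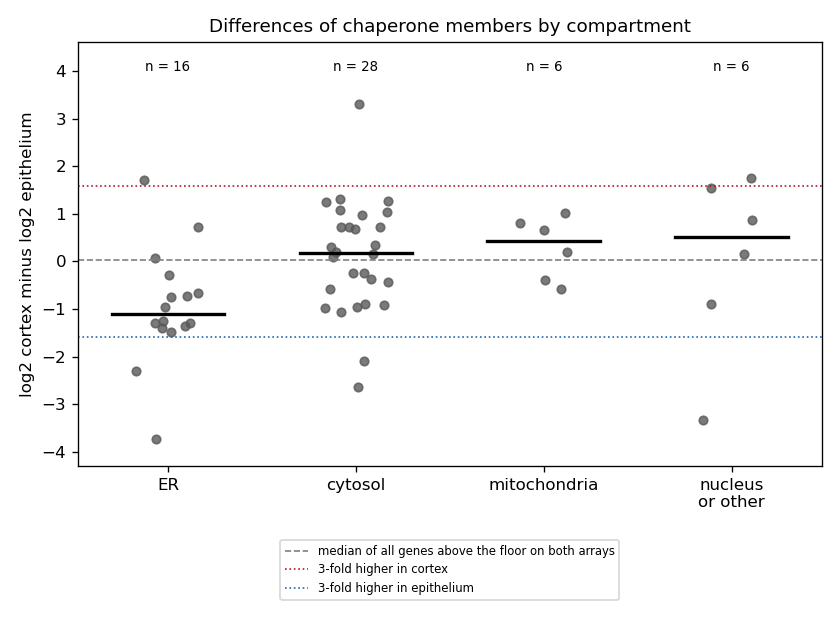
Log2 cortex minus log2 epithelium for each chaperone gene above the floor on both arrays, grouped by compartment. Each point is 1 gene, bars are group medians, the dashed line is the median of all 8351 genes above the floor on both arrays, and dotted lines mark 3-fold. The 16 ER genes centre on -1.11 and the 28 cytosolic genes on 0.18.

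The ER members were mostly brighter in epithelium. Of the 16 above the floor on both arrays, 13 were brighter in epithelium and 3 in cortex, while 49.0% of all such genes were brighter in epithelium. Among genes with a mean level of 16 or above 34.4% were brighter in epithelium, and all 5 ER members of that level were. At least 2-fold brightness in epithelium was reached by 8 of the 16, against 20.4% of all genes measured that way. The count of 13 of 16 in epithelium was the same after quantile normalization and after loess on brightness.

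BiP, the HSP70 of the ER lumen, is the hub of ER folding and its best known stress-induced gene. Hspa5 stood at 15.2 in cortex and 39.8 in epithelium, 2.62-fold brighter in epithelium. It passed 3-fold after quantile normalization (-1.93) and after loess (-1.75). Hsp90b1 (GRP94), the HSP90 of the ER, gave 49.6 in cortex and 83.4 in epithelium, 1.68-fold brighter in epithelium. Both major ATP-driven chaperones of the ER thus ran in the same direction, by less than 3-fold. Hspa13, a second ER member of the HSP70 family, was under the floor on both arrays.

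The protein disulfide isomerases form and rearrange disulfide bonds, and all 5 measured were brighter in epithelium. P4hb, the founding isomerase and also the β subunit of collagen prolyl 4-hydroxylase, stood at 7.29 in cortex and 35.7 in epithelium, 4.89-fold higher in epithelium. Pdia5 had the widest difference of any member, with 0.942 in cortex and 12.5 in epithelium. Its fold of 13.2 rests on a cortex value just under the array median, and after raising the floor to that median its log2 difference was -3.64 instead of -3.73. These were the 2 isomerase genes past the limit.

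Pdia3 (ERp57), which works with calnexin and calreticulin on glycoproteins, stood at 74.4 in cortex and 190 in epithelium, 2.56-fold brighter in epithelium. Pdia4 (ERp72) gave 1.28 in cortex and 3.59 in epithelium, 2.81-fold brighter in epithelium. Pdia6 gave 9.30 in cortex and 15.3 in epithelium, 1.65-fold. Of these 3, Pdia3 passed 3-fold in epithelium after quantile normalization or loess, and all 5 isomerases did after centring on ribosomal protein genes. That centring also called 2771 of all 13709 genes higher in epithelium.

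The lectin chaperones hold newly made glycoproteins until they fold, and the values of the pair differed. Canx (calnexin) stood at 1.78 in cortex and 3.47 in epithelium, 1.95-fold brighter in epithelium. A second, dimmer probe of Canx ran the same way and wider, at 0.656 in cortex and 2.93 in epithelium. Calr (calreticulin) was nearly level, at 5.31 in cortex and 5.02 in epithelium.

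With the assignment used here, the J-domain proteins of the ER were divided by type. Of the 7 assigned here to the ER, those with a luminal J domain were all brighter in epithelium by their brightest probe, and none passed 3-fold. Dnajc3 (P58IPK) stood at 1.52 in cortex and 3.72 in epithelium, 2.46-fold, and Dnajc10 (ERdj5, a disulfide reductase) at 2.07 in cortex and 4.95 in epithelium, 2.39-fold. A second probe of Dnajc10 was under the floor on both arrays. Dnajb11 (ERdj3) gave 23.4 in cortex and 28.6 in epithelium, only 1.22-fold. The last of these is close to level. Dnajc16, a membrane J protein, and Dnajc14 were counted under other places, and both were brighter in cortex (3.39-fold and 1.11-fold). Counts and medians with either in the ER set were not made.

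The other luminal J-domain genes assigned to the ER were dim. Dnajc1 stood at 0.525 in cortex and 1.29 in epithelium, but a second probe went the other way (0.825 in cortex, under the floor in epithelium), so its direction is not settled. Dnajb9 (ERdj4) gave 0.598 in cortex and 0.952 in epithelium. Assigned J proteins that face the cytosol from the ER membrane went toward cortex instead with the deposited scaling. Dnajb14 was 3.27-fold higher in cortex (9.65 in cortex, 2.96 in epithelium), and its relative Dnajb12 was 1.65-fold brighter there (2.40 in cortex, 1.45 in epithelium). After centring on ribosomal protein genes Dnajb14 no longer passed (0.78), and Dnajb12 changed sign (-0.20).

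**Figure D2:**
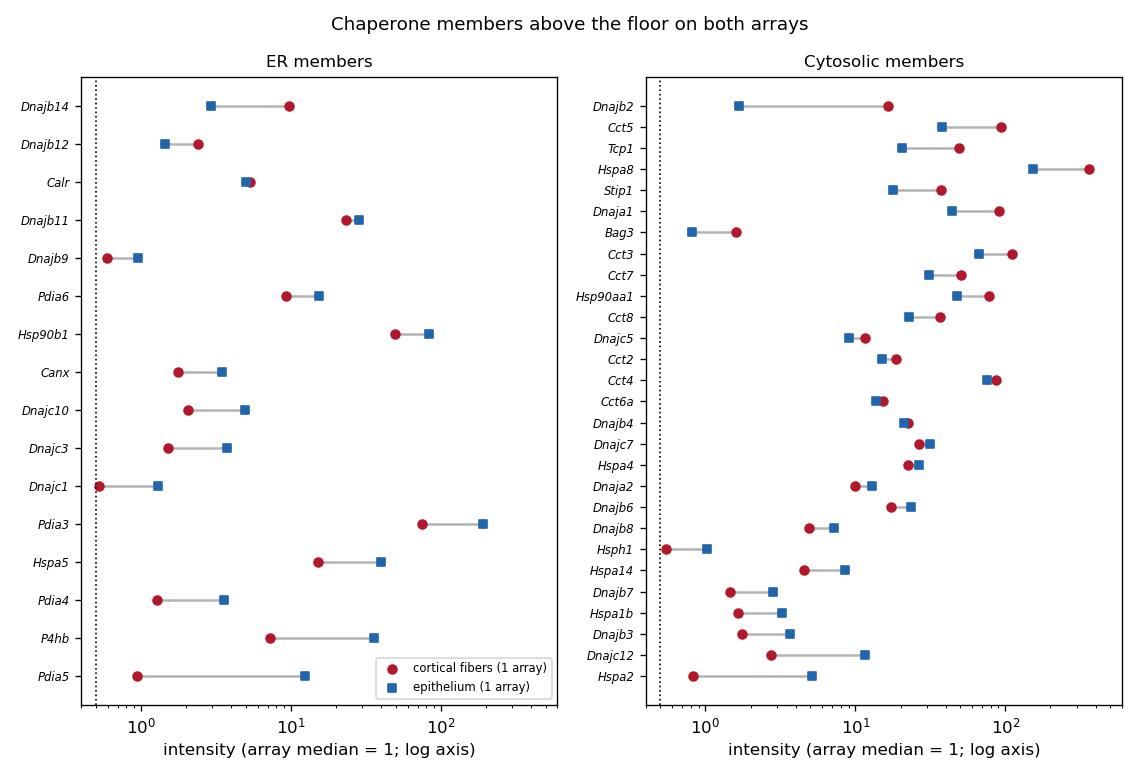
Intensity of each ER member (left) and each cytosolic member (right) above the floor on both arrays, on a log axis in units of the array median, with 1 point per array and the floor as a dotted line. Genes run from most cortical at the top to most epithelial at the bottom. Epithelium lies to the right for 13 of 16 ER genes and cortex lies to the right for 16 of 28 cytosolic genes with the deposited scaling.

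Many ER chaperone genes share a promoter element, the ER stress response element (ERSE), bound by ATF6 together with NF-Y. The letters CCAAT and CCACG with 9 bases of any kind between them were searched on both strands from 250 bases before to 50 bases after each gene's start, in RefSeq promoters of GRCm38.p6, where 60 of the 71 genes had an entry. They were found for 6 of 16 ER members (37.5%), for none of 33 cytosolic members and for 37 of 27025 genes in the table (0.137%). The 6 stretches are shown because the letters were found for a higher share of the ER members than of all genes in the table. The choice of members did not use the letters. The element was already known from ER chaperone genes, so the higher share is a description and not an independent result. Capitals mark the fixed letters of the element, and where they read CGTGG and ATTGG the element lies on the opposite strand.
Hspa5, chr2:34771990-34772080, plus strand: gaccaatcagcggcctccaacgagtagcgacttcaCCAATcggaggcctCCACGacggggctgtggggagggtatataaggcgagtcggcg
Hsp90b1, chr10:86705519-86705669, minus strand: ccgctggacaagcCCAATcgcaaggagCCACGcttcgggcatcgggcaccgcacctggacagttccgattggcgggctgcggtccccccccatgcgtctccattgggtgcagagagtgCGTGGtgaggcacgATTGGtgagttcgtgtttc
Pdia6, chr12:17266459-17266529, plus strand: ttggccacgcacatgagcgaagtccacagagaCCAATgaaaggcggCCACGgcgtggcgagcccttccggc
Canx, chr11:50325773-50325843, minus strand: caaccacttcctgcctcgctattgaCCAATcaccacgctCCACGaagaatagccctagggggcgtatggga
Calr, chr8:84847051-84847121, minus strand: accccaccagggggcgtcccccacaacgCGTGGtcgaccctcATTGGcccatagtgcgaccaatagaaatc
Dnajc3, chr14:118937802-118937872, plus strand: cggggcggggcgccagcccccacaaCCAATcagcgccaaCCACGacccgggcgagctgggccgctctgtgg

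Hsp90b1 carried 2 copies, the other 5 genes 1 each. The element did not sort the ER members by their difference. The 6 genes with it had a median of -0.86 and ran from -1.39 (Hspa5) to 0.08 (Calr), with 5 brighter in epithelium. The 10 ER genes without it had a median of -1.28, with 8 brighter in epithelium, and included P4hb and Pdia5, the 2 past the limit. The letters TGACGTGG of the unfolded protein response element, searched on both strands of the same windows, were in 0 of the 60 members with an entry and in 0.714% of all genes. A match of letters is a description of the sequence and does not show binding.

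The cytosolic members split by family. Of the 28 above the floor on both arrays, 16 were brighter in cortex and 12 in epithelium, while 51.0% of all such genes were brighter in cortex. Without the J-domain genes 12 of 17 were brighter in cortex. Bright genes as a class ran toward cortex on these arrays (65.6% of those with a mean level of 16 or above), and 12 of the 15 cytosolic members that bright did so. Scalings that remove this slope with brightness turned the balance toward epithelium: cortex was the brighter side for 10 of the 28 after quantile normalization and for 12 after loess, and epithelium for 18 and 16.

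Of the 28 cytosolic members, 6 were at least 2-fold brighter in cortex and 3 in epithelium, against 22.6% and 20.4% of all genes with both values above the floor. The cortex count is close to its background share, and the epithelium count lies below its own.

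CCT is a ring chaperonin with 8 different subunits that all cells need, and all 8 subunit genes above the floor were brighter in cortex with the deposited scaling, though not after the other scalings. Their differences ran from 0.17 (Cct6a) to 1.32 (Cct5), with a median of 0.70, and none passed 3-fold. Cct5 stood at 94.2 in cortex and 37.8 in epithelium, 2.49-fold, and Tcp1, the first subunit, at 49.3 in cortex and 20.6 in epithelium, 2.40-fold. Cct3 gave 111 in cortex and 67.2 in epithelium, 1.65-fold. The range over the 8 subunits is close to the pooled SD between probes of 1 gene.

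Cct7 gave 51.0 in cortex and 30.9 in epithelium, and Cct8 gave 36.5 in cortex and 22.8 in epithelium. Cct2 gave 18.6 in cortex and 15.0 in epithelium, and Cct6a gave 15.3 in cortex and 13.6 in epithelium. Cct4 was close to level by its bright probe, at 86.7 in cortex and 75.8 in epithelium. A second, dim probe of Cct4 went the other way (0.667 in cortex, 1.23 in epithelium). Cct6b, a variant subunit gene known from testis, was under the floor on both arrays.

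The direction of the CCT genes depended on the scaling. Cortex was brighter for 5 of the 8 after loess, for 4 after quantile normalization, and for 2 with ribosomal protein genes as the centre. Cct5 and Tcp1 stayed on the cortex side in each of these scalings, with lowest log2 differences of 0.39 and 0.34. The PDI genes of the ER, by contrast, kept all 5 of 5 on the epithelium side in each.

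The HSP70 family of the cytosol was also divided. Hspa8 (HSC70), the constitutive form, stood at 359 in cortex and 152 in epithelium, 2.36-fold brighter in cortex, but its log2 difference of 1.24 shrank to 0.16 after loess and 0.19 after quantile normalization. It was the single cytosolic HSP70 gene above the floor on both arrays that was brighter in cortex; the other 5 were brighter in epithelium. Of those 5, Hspa2, known best from the testis, was 6.17-fold higher in epithelium, at 0.826 in cortex and 5.10 in epithelium, and it still passed when the floor was the array median (-2.35).

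The stress-inducible Hspa1b stood at 1.66 in cortex and 3.24 in epithelium, 1.95-fold brighter in epithelium. Its near-identical copy Hspa1a was under the floor on both arrays, and since probes of such copies may share signal the Hspa1b value is uncertain. Neither inducible HSP70 gene was high on either array. The nucleotide exchange factors of the HSP110 branch were Hspa4 (22.3 in cortex, 26.5 in epithelium) and Hsph1 (0.550 in cortex, 1.02 in epithelium). Hspa14, of the ribosome-associated complex, gave 4.53 in cortex and 8.57 in epithelium. Hspa4l was above the floor in cortex alone, at 0.623, and Hspa1l, Hspa12a and Hspa12b were under it on both arrays.

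Only 1 cytosolic HSP90 gene was among the members, and Hsp90ab1 was not. That gene and 2 co-chaperones ran toward cortex with the deposited scaling. Hsp90aa1, the inducible cytosolic HSP90, stood at 78.1 in cortex and 47.4 in epithelium, 1.65-fold brighter in cortex, so it differed in direction from its ER relative Hsp90b1. Stip1 (HOP), which bridges HSP70 and HSP90, gave 37.5 in cortex and 17.8 in epithelium, 2.11-fold. Bag3, an HSP70 exchange factor of stressed cells, gave 1.60 in cortex and 0.810 in epithelium, 1.98-fold. None of these 3 passed the limit. Hsp90aa1 was level after loess (0.03) and after quantile normalization (-0.04).

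Among the cytosolic J-domain members, 11 were above the floor on both arrays, with 4 brighter in cortex and 7 in epithelium. Dnajb2, a J protein with ubiquitin-binding motifs, was the widest toward cortex among the members. It stood at 16.5 in cortex and 1.67 in epithelium, 9.84-fold higher in cortex. Dnajb1, left out of the members, was wider at 10.4-fold. Dnajb2 was also the single member still called in cortex after centring on ribosomal protein genes (2.37). Dnaja1, a main partner of HSC70, gave 91.0 in cortex and 44.0 in epithelium, 2.07-fold brighter in cortex.

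Dnajc12 went the other way, at 2.72 in cortex and 11.5 in epithelium, 4.25-fold higher in epithelium. Its protein is known in humans as a cofactor for the aromatic amino acid hydroxylases. Dnajb3, at 1.75 in cortex and 3.64 in epithelium, was 2.08-fold brighter in epithelium. The remaining J-domain genes above the floor on both arrays (Dnaja2, Dnajb4, Dnajb6, Dnajb7, Dnajb8, Dnajc5 and Dnajc7) differed by less than 2-fold by their brightest probe, from -0.96 to 0.35. A second, dimmer probe of Dnajc5 was 2.23-fold brighter in cortex (1.18 in cortex, 0.528 in epithelium). Dnaja4 was at least 2.72-fold brighter in cortex (1.36 in cortex, under the floor in epithelium), and Dnajc5b and Dnajc2 were likewise above the floor in cortex alone. Dnajb5, Dnajb13 and Dnajc6 were under the floor on both arrays. Dnajb1, not counted among the members, stood at 59.0 in cortex and 5.67 in epithelium, and the small heat shock gene Hspb1 at 1197 in cortex and 13.9 in epithelium.

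The heat shock element (HSE), bound by the heat shock factors, was searched in the same promoters as GAANNTTC or TTCNNGAA, 2 facing repeats of the unit GAA that can overlap in longer arrays and read the same on both strands. It was present for 11 of 33 cytosolic members (33.3%), 1 of 16 ER members (6.25%) and 2 of 4 mitochondrial members, against 4587 of 27025 genes in the table (17.0%). A longer form of 3 units, GAANNTTC followed by NNGAA on either strand and added after the first result was seen, was found for Dnajb6, Hsph1, Hspd1 and Hspe1 and for 0.662% of all genes. Stretches are shown for 5 genes that span the range of differences, with the unit letters in capitals.
Cct5, chr15:31601847-31601906, minus strand: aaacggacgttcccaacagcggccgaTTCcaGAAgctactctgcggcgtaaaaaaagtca
Dnaja1, chr4:40722318-40722378, plus strand: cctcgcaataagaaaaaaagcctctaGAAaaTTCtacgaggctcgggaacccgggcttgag
Hspe1, chr1:55088028-55088098, plus strand: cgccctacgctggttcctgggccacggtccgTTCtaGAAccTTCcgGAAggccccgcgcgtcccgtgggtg
Dnajb4, chr3:152193846-152193895, minus strand: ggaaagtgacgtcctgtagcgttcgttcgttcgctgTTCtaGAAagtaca
Hspa1b, chr17:34959308-34959368, minus strand: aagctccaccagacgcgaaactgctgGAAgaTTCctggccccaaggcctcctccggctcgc

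Genes with the HSE letters were found on both sides. Of 9 cytosolic members with them and above the floor on both arrays, 6 were brighter in cortex, and the median was 0.17, with a range from -0.97 (Hspa1b) to 1.32 (Cct5). Of 14 without them, 6 were brighter in cortex and the median was -0.25. Cct5 and Dnaja1 above were 2.49-fold and 2.07-fold brighter in cortex, Dnajb4 was level at 22.5 in cortex and 21.0 in epithelium, and Hspa1b was brighter in epithelium. The letters therefore did not separate the directions.

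All 6 mitochondrial members were above the floor on both arrays, none passed 3-fold, and their median was 0.43, which turned to -0.49 after centring on ribosomal protein genes. Hspa9 (mortalin), the HSP70 of the matrix, stood at 43.3 in cortex and 21.5 in epithelium, 2.01-fold brighter in cortex. Hspd1 (HSP60) and Hspe1 (HSP10) form a single folding chamber and lie head to head on chromosome 1. A promoter window of Hspd1 shares 285 of its bases with that of Hspe1, while the window of another Hspd1 start shares 4. The array of HSE units shown for Hspe1 lies in the stretch of 285 bases. In the other Hspd1 window no HSE letters were found. The values of Hspd1 and Hspe1 nevertheless ran in opposite directions. Hspd1 stood at 14.2 in cortex and 21.1 in epithelium, and Hspe1 at 8.94 in cortex and 5.08 in epithelium. Both differences (-0.58 and 0.82) are under the pooled SD between probes, and that of Hspe1 is above the median SD. Dnajc19, of the import motor, gave 29.8 in cortex and 18.8 in epithelium, Dnajc30 gave 15.2 in cortex and 19.8 in epithelium, and Dnaja3 was near the floor.

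Of the 8 J-domain genes assigned to the nucleus or other places, Dnajc9 and Dnajc16 passed the limit in opposite directions. Dnajc9, a nuclear co-chaperone of histones, stood at 0.882 in cortex and 8.89 in epithelium, 10.1-fold higher in epithelium. Dnajc16, a membrane J protein, stood at 7.76 in cortex and 2.29 in epithelium, 3.39-fold higher in cortex, and no longer passed after centring on ribosomal protein genes (0.84). Dnajc4 fell just short in cortex, at 18.9 in cortex and 6.45 in epithelium. Dnajc17, a spliceosome-associated J protein, gave 4.67 in cortex and 8.73 in epithelium, Dnajc14 and Dnajc24 differed by less than 2-fold, and Dnajc22 and Dnajc28 were under the floor on both arrays.

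A list of 36 other measured genes of ER folding and quality control, none of them a member, ran in the direction of the ER chaperones. By the 3-fold rule 12 were higher in epithelium and 1 in cortex, against 8.17% and 9.41% of all genes, and the median over the 34 above the floor on at least 1 array was -1.35. Of the 31 above the floor on both arrays, 24 were brighter in epithelium, against 49.0% of all such genes. Sdf2l1, a BiP cofactor, stood at 0.524 in cortex and 6.48 in epithelium, 12.4-fold higher in epithelium, where the cortex value is near the floor. Its relative Sdf2 gave 10.2 in cortex and 39.4 in epithelium, 3.86-fold.

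Several of the 12 handle collagen or proline isomers. Serpinh1 (HSP47), the collagen chaperone, stood at 3.31 in cortex and 17.8 in epithelium, 5.37-fold higher in epithelium. The ER prolyl isomerase genes Fkbp2 (9.90-fold), Fkbp7 (9.18-fold), Fkbp14 (5.15-fold) and Fkbp11 (at least 3.16-fold) were higher there too. Glycan trimming was represented by Prkcsh, the glucosidase II β subunit (2.41 in cortex, 19.5 in epithelium), and Edem2 (3.07-fold). The thiol enzymes were Txndc5 (3.75-fold, with a second probe at -1.35) and Ero1a, the oxidase that recharges PDI (3.40-fold), and Creld2 (3.43-fold) completed the 12. Sel1l, an adaptor of ER-associated degradation, was the exception, at 12.3 in cortex and 1.66 in epithelium, but its second probe went the other way (0.650 in cortex, 3.63 in epithelium).

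**Figure D3:**
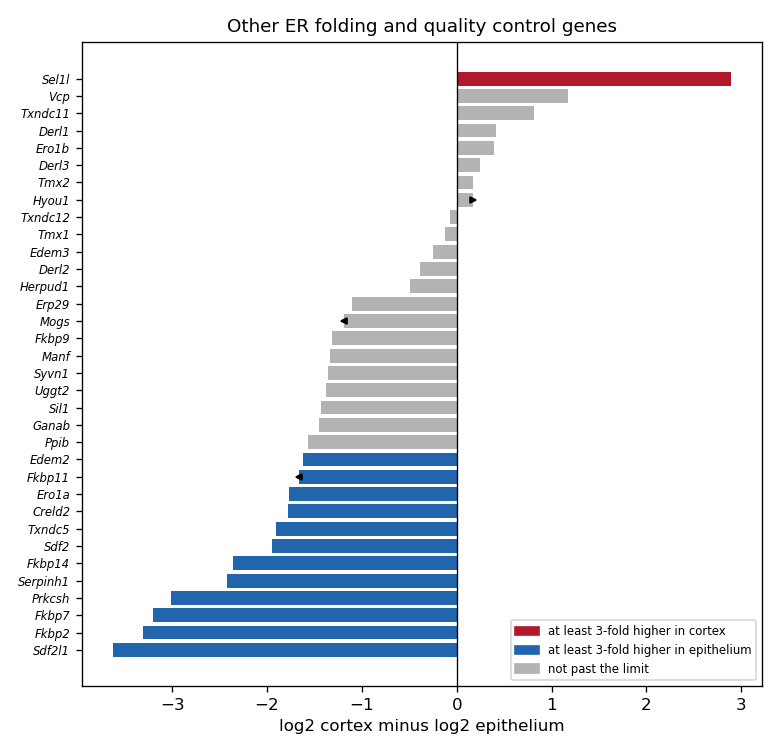
Log2 cortex minus log2 epithelium for the 34 ER folding and quality control genes outside the chaperone set that were above the floor on at least 1 array. Bars start at 0, colours mark genes at least 3-fold higher in cortex or in epithelium, and arrowheads mark bounds. Most bars, 12 of them past 3-fold, point to epithelium, and Sel1l alone passed toward cortex.

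The sensors and factors of the unfolded protein response had no common direction, with 2 of 11 past the limit toward cortex and 2 toward epithelium, against 9.41% and 8.17% of all genes, and a list median of -0.04. Ppp1r15a (GADD34), which restores translation after eIF2α phosphorylation, stood at 219 in cortex and 3.23 in epithelium, 67.8-fold higher in cortex. Ern1 (IRE1α) was 3.16-fold higher in cortex, at 1.70 in cortex and 0.539 in epithelium, the second near the floor. Eif2ak3 (PERK) was 5.73-fold higher in epithelium (0.797 in cortex, 4.57 in epithelium), and Mbtps1, the protease that activates ATF6, 4.65-fold. The other 7 genes of the list did not pass.

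The cytosolic co-chaperone list had 2 of 20 genes past the limit toward cortex and 2 toward epithelium, against 9.41% and 8.17% of all genes, and its median was 0.35 with the deposited scaling. Ahsa1, which activates the HSP90 ATPase, stood at 135 in cortex and 25.0 in epithelium, 5.40-fold higher in cortex. Tbcb, a tubulin cofactor downstream of CCT, was 3.66-fold higher in cortex (115 in cortex, 31.4 in epithelium). Pdcl3, a CCT cofactor, went the other way at 3.22-fold (7.86 in cortex, 25.3 in epithelium), as did Bag4 (at least 3.46-fold). Of 5 prefoldin-type genes, whose complex delivers actin and tubulin to CCT, none passed. Of 8 mitochondrial folding genes 1 passed, Trap1, the HSP90 of mitochondria, 3.93-fold higher in epithelium (0.604 in cortex, 2.37 in epithelium). All 8 lay above the floor on both arrays, with 6 brighter in epithelium and 2 in cortex, against 49.0% and 51.0% of all such genes. The median of these 8 was -0.48, while that of the 6 mitochondrial members was 0.43. The prefoldin and mitochondrial folding lists are small, and 9.41% of all genes passed toward cortex and 8.17% toward epithelium. Neither of the 2 genes of the heat shock factor list passed.

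Because the scaling moved every median, the distance between the ER and the cytosolic members was examined under each setting. A factor that multiplies a whole array cancels in this distance. Centring on ribosomal protein genes moved the median of all genes above the floor on both arrays to -0.89, against 0.03 with the deposited scaling, and moved the ER median to -2.04 and the cytosolic median to -0.68. The distance between them stayed at -1.36. It was -1.20 after quantile normalization and -1.23 after loess, and its smallest size was -0.99, with the mean over probes. The ER median stayed below 0 in each setting run, while the cytosolic median changed sign, so no direction can be given for the cytosolic members as a group.

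**Figure D4:**
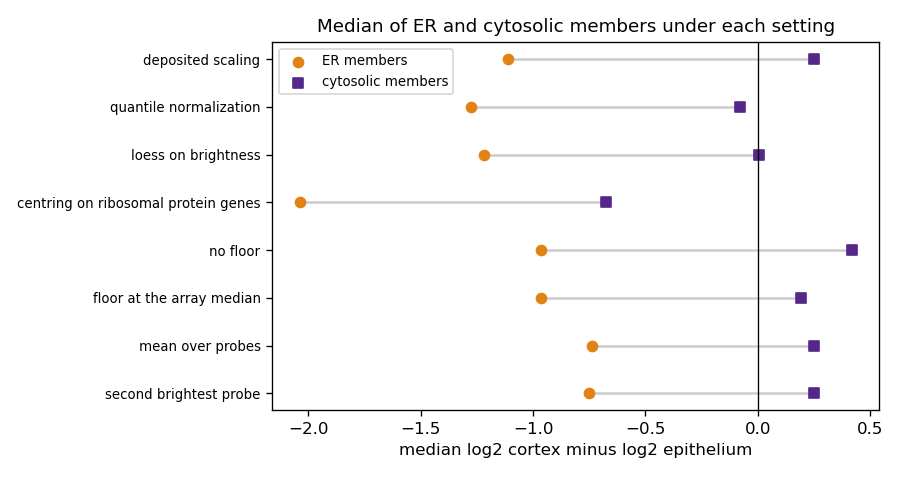
Median log2 cortex minus log2 epithelium of the ER members (circles) and the cytosolic members (squares) above the floor on at least 1 array, for the deposited scaling and 7 alternatives. The ER median lies left of the cytosolic median in each, and the cytosolic median lies on both sides of 0 (0.25 with the deposited scaling, -0.68 after centring on ribosomal protein genes).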

How the data were processed

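RNA of 1 cortical fiber sample and 1 epithelium sample was measured on 1-colour CodeLink arrays, with image analysis by the CodeLink software, per the labels. The deposited intensities are linear, with medians of 0.998 on both arrays and some values below 0, and the sources used here do not state the background and scaling steps of the authors. Probes with a missing value (87 in cortex, 97 in epithelium) were left out. Gene names came from the platform annotation (15120 probes with 1 symbol, 38 with several, 4661 with none), and all 71 members matched RefSeq of GRCm38.p6 by Entrez identifier.

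The deposited scaling was kept, values under 0.5 of the array's median were set to that floor before taking log2. The probe with the highest mean log2 value stood for a gene. A gene above the floor on 1 array has a bound, and a gene under it on both has a difference of 0. With 1 array a group there was no test, and the number of arrays limits the precision. Compartments were assigned from general knowledge of each protein, and other assignments were not tried. Every member may be named, and of the other lists those past 3-fold. The members, lists and rules were chosen with earlier results of these data known. The procedure was tested on simulated data in which only bright genes were changed, so the test does not cover dim genes. Its noise was set below the spread between probes of the same gene. Alternatives were quantile normalization, centring on ribosomal protein genes, loess on brightness with a span of 0.3, other floors, other probe summaries and limits of 2-fold and 5-fold. The work used statsmodels 0.14.6, pandas 2.3.3, numpy 2.4.6 and Python 3.11.15, and figures were drawn with matplotlib 3.10.9.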

Additional observations from a re-analysis of the deposited data

How the results depend on the processing

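With 1 array a group every value is a single difference, and brightness over background limits the dim genes most. The number of members called was 8, with 3 higher in cortex and 5 in epithelium. Centring on ribosomal protein genes gave 1 in cortex and 20 in epithelium, 21 in all. Over all 13709 genes the same centring called 585 in cortex and 2771 in epithelium. A 2-fold limit gave 11 in cortex and 12 in epithelium (23), and a 5-fold limit 1 and 3 (4). The share of all genes past 5-fold was not counted. Of the 56 members above the floor on both arrays, 10 were at least 2-fold brighter in cortex and 12 in epithelium. Over all such genes these shares were 22.6% and 20.4%. Quantile normalization, loess, the other floors and the other probe summaries kept the 3-fold counts of members within 1.5 times. They were not run with the 2-fold and 5-fold limits. The median of all members, 0.09, changed sign to -0.25 over members above the floor on both arrays, -0.44 after quantile normalization, -0.35 after loess, -0.83 after centring on ribosomal protein genes, -0.036 when the floor was the array median and -0.083 with the mean over probes, so it has no settled direction. The cytosolic median changed sign to -0.077 after quantile normalization and -0.68 after centring, and the mitochondrial median to -0.49 after centring. The ER median went to -2.04 after centring and to -0.74 with the mean over probes, and kept its sign in each setting run. The distance between the ER and the cytosolic median ran from -1.38 to -0.99. In the ER folding list, centring gave 21 of 36 genes higher in epithelium, against 2771 of all 13709 genes, and the mean over probes left 0 higher in cortex. No called member changed sign. No paired analysis was possible because each group holds 1 array. The alternatives for the ER folding list were added after seeing the data.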
